A study of Mus musculus with 6 samples.

Results

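Genes that mark resident-type tissue macrophages, namely Cd5l, Timd4, Folr2, Lyve1, Vsig4, Cd163, Stab1, Siglec1, F13a1 and Igf1, were followed in macrophages sorted from mouse mammary tumours. These 10 genes were taken by gene symbol from a table of 35275 genes, in which each of the 10 symbols stood on a single row. The list was drawn up with differences between the groups in these same libraries already known, Cd5l foremost, so the differences below are descriptions without a test. RNA sequencing was run on 6 libraries, each from a separate female mouse of the FVB/NJ background aged 65 days. All mice carried the MMTV-PyMT transgene, in which a mammary tumour virus promoter drives the polyoma middle T oncogene in the mammary epithelium, and loxP-flanked Atg5 alleles. In addition the 3 Atg5 KO mice had LysMcre, with Cre placed in the Lyz2 gene so that it acts in macrophages, monocytes and neutrophils; the 3 Atg5 WT mice had no Cre. The sort for tumour-associated macrophages kept cells with CD11b and F4/80 and dropped those with Ly6G or Ly6C (CD11b+ F4/80+ Ly6G- Ly6C-). The comparison asked how gene expression of these cells differs when Atg5, a gene needed to form autophagosomes, is targeted for deletion in myeloid cells.

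The libraries held between 18770262 and 21173301 reads, recovered from the FPKM values (reads scaled by gene length and by the reads of the library). Lyz2 went with the labels, at 8.43, 11.8 and 16.1 FPKM in the Atg5 KO libraries, against 4707, 2060 and 6571 FPKM in the Atg5 WT libraries. Atg5 over the whole gene went against them, at 14.02, 16.6 and 17.4 FPKM in Atg5 KO, against 5.15, 5.11 and 5.28 FPKM in Atg5 WT. A value for the whole gene does not separate out the part between the loxP sites, so directions here rest on the labels and on Lyz2, and Atg5 KO and Atg5 WT stand throughout for the libraries labelled so. Cre and the low Lyz2 level went with Atg5 targeting in every library, so the parts of these in any difference cannot be told apart. Atg5 WT replicate 2 lay far from the other libraries on the first principal component, which held 74.99% of the variance, and values without it are given for the 10 genes and for the gene lists that moved most.

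Resident-type macrophages settle in a tissue early and keep themselves there, in contrast to cells newly made from blood monocytes. Many lie along vessels or in body cavities, where they clear dying cells, haemoglobin and complement-coated particles, and they express uptake receptors together with transcription factors such as MAF and the liver X receptors. In mammary tumours macrophages of this type are found beside monocyte-derived ones, and the genes below are commonly used to tell them apart.

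Promoter sequence is shown for 5 of the genes, to set Cd5l and Timd4, whose libraries did not overlap between the groups, beside Cd163, F13a1 and Vsig4, whose levels followed one another from library to library. RefSeq (build GRCm38.p6) had a promoter for 8 of the 10 genes, and the 250 bases before the gene start are printed 5′ to 3′ on the strand of the gene. Capitals mark the motifs that were found. The entries are Cd5l at chr3:87357631-87357880 (plus strand), Timd4 at chr11:46810549-46810798 (plus strand), Cd163 at chr6:124304401-124304650 (plus strand), F13a1 at chr13:37050245-37050494 (minus strand) and Vsig4 at chrX:96293439-96293688 (minus strand).
Cd5l: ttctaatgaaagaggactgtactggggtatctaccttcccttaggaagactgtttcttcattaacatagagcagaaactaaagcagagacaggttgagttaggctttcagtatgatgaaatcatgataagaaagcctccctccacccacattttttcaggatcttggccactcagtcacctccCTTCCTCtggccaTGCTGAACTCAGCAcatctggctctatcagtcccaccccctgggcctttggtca
Timd4: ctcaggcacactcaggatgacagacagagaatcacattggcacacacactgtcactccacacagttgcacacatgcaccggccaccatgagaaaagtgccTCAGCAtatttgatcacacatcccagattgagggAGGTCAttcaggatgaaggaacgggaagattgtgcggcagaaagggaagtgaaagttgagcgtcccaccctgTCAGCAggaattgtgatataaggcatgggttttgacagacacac
Cd163: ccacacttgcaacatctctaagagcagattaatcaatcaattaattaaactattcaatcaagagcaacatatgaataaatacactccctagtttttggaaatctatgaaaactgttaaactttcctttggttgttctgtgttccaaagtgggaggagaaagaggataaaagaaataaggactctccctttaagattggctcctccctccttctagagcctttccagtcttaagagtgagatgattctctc
F13a1: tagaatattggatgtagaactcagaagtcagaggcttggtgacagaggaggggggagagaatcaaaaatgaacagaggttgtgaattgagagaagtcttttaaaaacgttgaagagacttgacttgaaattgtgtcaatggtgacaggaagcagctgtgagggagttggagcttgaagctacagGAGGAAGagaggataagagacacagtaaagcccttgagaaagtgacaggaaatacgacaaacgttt
Vsig4: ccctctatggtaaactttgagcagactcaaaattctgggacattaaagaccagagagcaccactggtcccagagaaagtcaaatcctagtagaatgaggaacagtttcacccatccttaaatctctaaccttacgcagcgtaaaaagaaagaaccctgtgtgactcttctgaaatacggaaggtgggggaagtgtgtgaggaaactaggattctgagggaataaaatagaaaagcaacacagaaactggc
Motifs were searched on both strands, and positions are those of the first base, with -1 just before the start. The MAF core TGCTGA lay at -54 and -46 in the Cd5l promoter and at -150 and -44 in that of Timd4, and 16.1% of 32851 promoter windows of the same length held it. In the Cd5l promoter the MAF cores faced each other, TGCTGA being followed after 2 bases by its reverse complement TCAGCA, an inverted pair that contains them both. This pair was searched after the Cd5l sequence had been seen, and 2 windows held it, 0.00609% of all. The ETS-type motif GAGGAAG lay at -67 for Cd5l and at -66 for F13a1 (10.6% of windows), and the nuclear receptor core AGGTCA at -116 for Timd4 (14.02%). A direct repeat of AGGTCA with 4 bases between the copies (0.0152%), the interferon response motif of GAAA repeated after 2 bases (2.98%), the GAS motif TTCNNNGAA (7.02%) and the E-box CACGTG (6.02%) were in none of the 5 windows shown, and the windows of Cd163 and Vsig4 held none of the motifs searched. Stab1, not printed, had a MAF core at -43, and Folr2 had one at -19 in the window next to its listed start. Igf1, also not printed, had the ETS-type motif at -60 and AGGTCA at -161, before a start 2846 bases from its listed one. A match is a spelling and not a measured binding site.

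In the deposited table (build mm10) Cd5l lies at chr3:87357881-87371074, Timd4 at chr11:46810800-46844332, Cd163 at chr6:124304651-124330527 and Igf1 at chr10:87858265-87937042, all on the plus strand. On the minus strand lie F13a1 at chr13:36867178-37050244, Vsig4 at chrX:96247203-96293438, Stab1 at chr14:31139013-31168641, Siglec1 at chr2:131069220-131086765, Lyve1 at chr7:110850607-110862953 and Folr2 at chr7:101839990-101845331. Values are sums over a gene, and F13a1, Stab1 and Folr2 share exon bases with a gene on the opposite strand, so part of their reads is uncertain.

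Cd5l, which encodes a secreted protein of the scavenger receptor cysteine-rich (SRCR) family that macrophages release into plasma, was several-fold higher in the Atg5 KO libraries. Its level was 33.1, 12.5 and 43.0 FPKM in Atg5 KO, against 6.18, 2.06 and 8.37 FPKM in Atg5 WT. The groups did not overlap, and within Atg5 KO the library of replicate 2 lay nearer to the Atg5 WT libraries than the other two did. The means were 29.5 ± 15.5 FPKM in Atg5 KO and 5.54 ± 3.20 FPKM in Atg5 WT (SD, n = 3 each), a ratio of 5.33, and the difference in log2(FPKM + 1), Atg5 KO minus Atg5 WT, was 2.21 with an SE of 0.59. These values rest on 1426, 529 and 1743 reads in Atg5 KO and 240, 81 and 320 reads in Atg5 WT. By mean FPKM, Cd5l was the seventh of the 10 genes in Atg5 KO and the tenth in Atg5 WT, where its libraries overlapped those of Igf1, Vsig4 and Timd4. In Atg5 KO the order of mean FPKM, high to low, was Folr2, Stab1, F13a1, Cd163, Lyve1, Siglec1, Cd5l, Timd4, Vsig4 and Igf1, and neighbours in it had overlapping libraries except F13a1 above Cd163 and Timd4 above Vsig4. In Atg5 WT it was F13a1, Folr2, Stab1, Cd163, Lyve1, Siglec1, Timd4, Vsig4, Igf1 and Cd5l, and all neighbours overlapped.

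The other secreted products did not share that pattern. F13a1, the catalytic subunit of coagulation factor XIII, had 107, 209 and 135 FPKM in Atg5 KO, against 150.5, 67.7 and 233 FPKM in Atg5 WT. Its means were nearly equal, 150.3 ± 53.2 FPKM in Atg5 KO and 150.5 ± 82.8 FPKM in Atg5 WT (SD, n = 3 each), with a log2 difference of 0.11 and an SE of 0.49. Igf1, insulin-like growth factor 1, was the least abundant gene in Atg5 KO, at 3.74, 8.29 and 4.77 FPKM, against 5.87, 5.68 and 7.47 FPKM in Atg5 WT. Its log2 difference was -0.20 with an SE of 0.27. For both genes the groups overlapped, and within Atg5 KO the library of replicate 2 was the highest, the opposite of Cd5l.

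Among the uptake receptors, Timd4, which binds phosphatidylserine on dying cells, was the other gene whose libraries did not overlap. It had 19.8, 22.1 and 24.0 FPKM in Atg5 KO, against 12.4, 4.05 and 18.3 FPKM in Atg5 WT. The means were 21.9 ± 2.11 FPKM in Atg5 KO and 11.6 ± 7.15 FPKM in Atg5 WT (SD, n = 3 each), for a log2 difference of 1.07 (SE 0.49). The nearest libraries, Atg5 KO replicate 1 and Atg5 WT replicate 3, were close, and without Atg5 WT replicate 2 the difference was 0.51. Stab1, a large scavenger receptor that clears modified lipoproteins and matrix fragments, had 129, 163 and 160.4 FPKM in Atg5 KO, against 97.6, 43.0 and 147 FPKM in Atg5 WT, a log2 difference of 0.81 with an SE of 0.44. Its groups overlapped through Atg5 WT replicate 3, and the difference was 0.32 without Atg5 WT replicate 2.

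Cd163, the receptor for haemoglobin bound to haptoglobin and itself an SRCR protein, had the lowest difference of the 10. It had 20.8, 65.2 and 25.7 FPKM in Atg5 KO, against 49.4, 26.3 and 73.1 FPKM in Atg5 WT, with means of 37.2 ± 24.4 FPKM in Atg5 KO and 49.6 ± 23.4 FPKM in Atg5 WT (SD, n = 3 each). That is a log2 difference of -0.47 (SE 0.54). Vsig4, a complement receptor for C3 fragments, had 3.76, 10.4 and 6.60 FPKM in Atg5 KO, against 8.13, 2.71 and 12.4 FPKM in Atg5 WT, on between 75 and 333 reads, with a log2 difference of -0.04 and an SE of 0.55. Without Atg5 WT replicate 2 the differences were -0.86 for Cd163 and -0.57 for Vsig4. In both genes the library Atg5 KO replicate 2 stood among the high Atg5 WT libraries while Atg5 KO replicates 1 and 3 were low, and the groups overlapped.

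The adhesion and vitamin receptors lay between these patterns. Lyve1, a hyaluronan receptor of perivascular macrophages and of lymphatic vessels, had 25.2, 49.1 and 34.1 FPKM in Atg5 KO, against 36.6, 17.0 and 62.5 FPKM in Atg5 WT, with a log2 difference of 0.03 and an SE of 0.49. Folr2, a folate receptor of macrophages, was the most abundant gene in Atg5 KO, at 142, 238 and 175 FPKM, against 146, 56.8 and 225 FPKM in Atg5 WT, a log2 difference of 0.55 with an SE of 0.52. Siglec1, the sialic acid-binding receptor sialoadhesin, had 30.4, 22.8 and 36.9 FPKM in Atg5 KO, against 17.3, 6.62 and 26.5 FPKM in Atg5 WT, a log2 difference of 0.96 with an SE of 0.49, and of 0.44 without Atg5 WT replicate 2. Groups overlapped for all 3 genes, and Siglec1 shared with Cd5l its order within Atg5 KO, highest in replicate 3 and lowest in replicate 2.

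**Figure D1:**
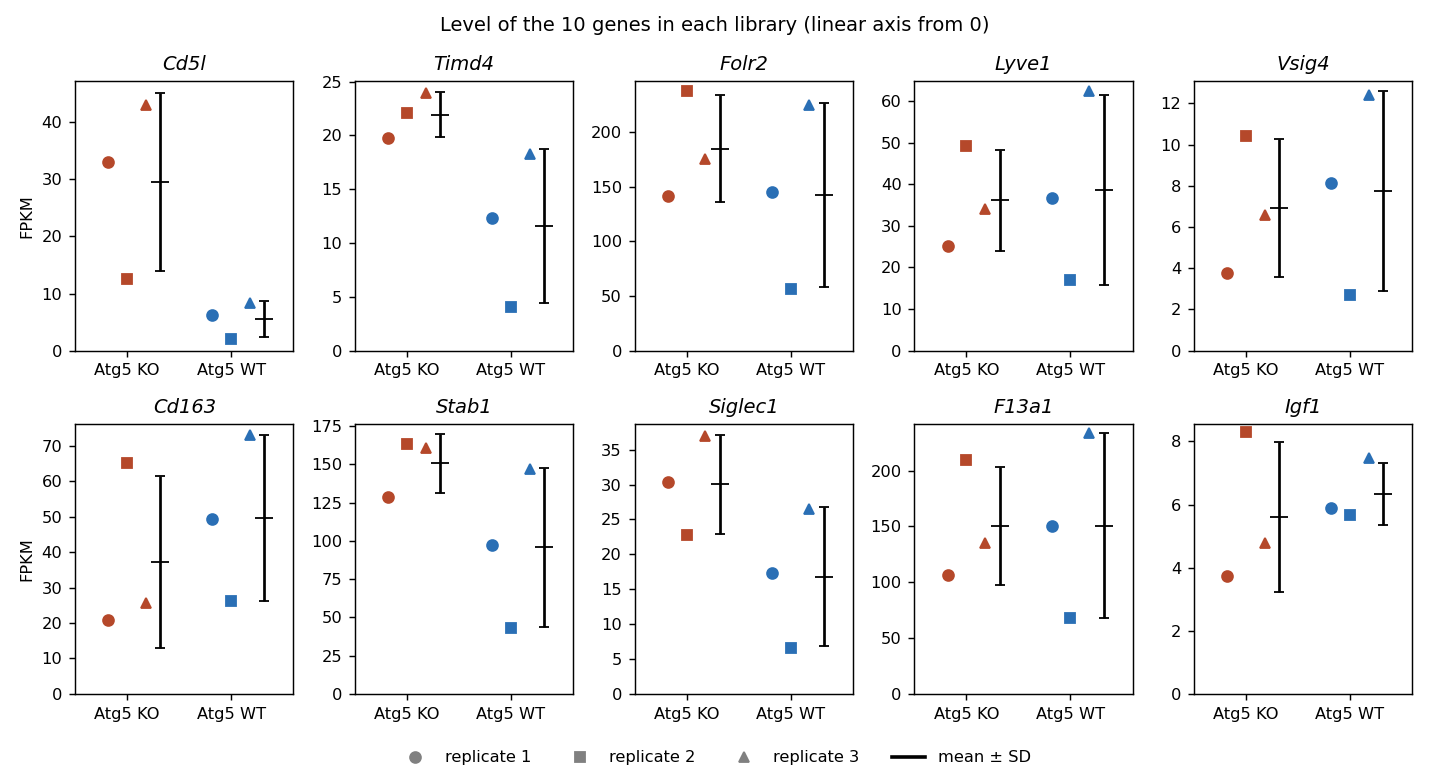
Level of each of the 10 genes in FPKM (vertical axis, from 0) in the Atg5 KO (left, red) and Atg5 WT (right, blue) libraries, with a symbol per replicate and the mean ± SD beside the points (n = 3 each). Only Cd5l and Timd4 have all Atg5 KO points above all Atg5 WT points, and Atg5 WT replicate 2 is the lowest point of every gene except Cd163 and Igf1.

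All 10 genes passed the filter of a mean of at least 1 FPKM, and in the fit across all 12332 genes that passed it 0 of the 10 were called (limma-trend, Benjamini-Hochberg threshold of 0.05), where 0.00811% of all genes were. That share was 1 gene, Lyz2. limma-voom on the recovered reads likewise called 0 of the 10, against 0.00811% of all genes. At an unadjusted p under 0.05 each tool counted 1 of the 10, against 10.01% of all genes by limma-trend and 9.51% by limma-voom. Libraries did not overlap for 2 of the 10 genes, both higher in Atg5 KO, where 9.20% of all genes were higher without overlap and 9.41% lower. Of the 10 genes, 7 had a higher and 3 a lower mean log2 level in Atg5 KO. Of all 12332 genes tested, 4593 (37.24%) had a higher and 7739 a lower mean. The median difference of the 10 genes was 0.33, against -0.09 for all genes tested. Since the list was drawn up from this contrast, nothing is read from these counts.

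Macrophage marker levels differed between libraries. The macrophage score, the mean log2(FPKM + 1) of 15 macrophage genes without any of the 10 and without Lyz2, was 8.74, 8.81 and 9.10 in Atg5 KO, against 8.28, 7.01 and 8.80 in Atg5 WT. It was higher in Atg5 KO by 0.86 (exact two-sided permutation p = 0.2, smallest possible 0.1), and by 0.35 without Atg5 WT replicate 2. All 15 genes had a higher mean in Atg5 KO, also under median-ratio scaling and quantile normalization. The sorting antigen genes Adgre1 (F4/80), at 195, 209.6 and 258 FPKM in Atg5 KO and 143, 50.0 and 210.0 FPKM in Atg5 WT, and Itgam (CD11b) were present in every library. Markers of mammary epithelium and tumour cells were present too: their score was 5.51, 4.10 and 3.50 in Atg5 KO, against 6.19, 7.13 and 4.03 in Atg5 WT (difference -1.42, exact permutation p = 0.3; -0.74 without Atg5 WT replicate 2). In bulk libraries fewer cells of a type and less RNA per cell cannot be told apart.

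Some of the 10 genes also serve as markers of other cells. Of the lymphatic markers, Prox1 was at 0.334, 0.110 and 0.133 FPKM in Atg5 KO, against 0.736, 1.05 and 0.162 FPKM in Atg5 WT, and Reln and Mmrn1 were below 1 FPKM in every library, while Lyve1 stood at 17.0 FPKM or above in each. Pdpn, which some macrophages also express, had 10.4, 28.8 and 13.6 FPKM in Atg5 KO, against 28.9, 12.1 and 38.9 FPKM in Atg5 WT. All 11 endothelial genes had a lower mean in Atg5 KO (median log2 difference -1.08; -0.78 without Atg5 WT replicate 2), among them Cdh5 at 3.38, 3.39 and 1.12 FPKM in Atg5 KO, against 12.2, 16.5 and 5.81 FPKM in Atg5 WT. Of the platelet markers, which bear on F13a1, Gp6 was at 0 in every library, Gp1bb stayed below 1 FPKM, and Itga2b ran from 0.248 to 2.29 FPKM. All 11 fibroblast and pericyte genes had a lower mean in Atg5 KO (median -1.73; -1.11 without that library), and Col1a1, whose cells can also make Igf1, had 26.7, 25.0 and 10.1 FPKM in Atg5 KO, against 64.2, 216 and 40.6 FPKM in Atg5 WT. None of these genes was called, and their part in the values of Lyve1, F13a1, Stab1 and Igf1 was not tested.

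Monocyte markers split the Atg5 KO libraries. Ly6c2, which encodes an antigen that the sort selected against, had 5.71, 0.702 and 5.29 FPKM in Atg5 KO, against 0.861, 0.483 and 0.875 FPKM in Atg5 WT. Plac8, another gene of young monocytes, had 29.0, 14.1 and 31.9 FPKM in Atg5 KO, against 11.1, 8.97 and 15.02 FPKM in Atg5 WT. In both, Atg5 KO replicate 2 lay within the range of the Atg5 WT libraries, as it did for the level of Cd163. The 8 monocyte genes did not move as one: their score was 3.16, 2.56 and 3.12 in Atg5 KO, against 2.61, 2.89 and 2.72 in Atg5 WT, and 4 of the 8 had lower means in Atg5 KO (3 of the 8 under median-ratio scaling and under quantile normalization). Their part in the differences of the 10 genes was not tested.

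**Figure D2:**
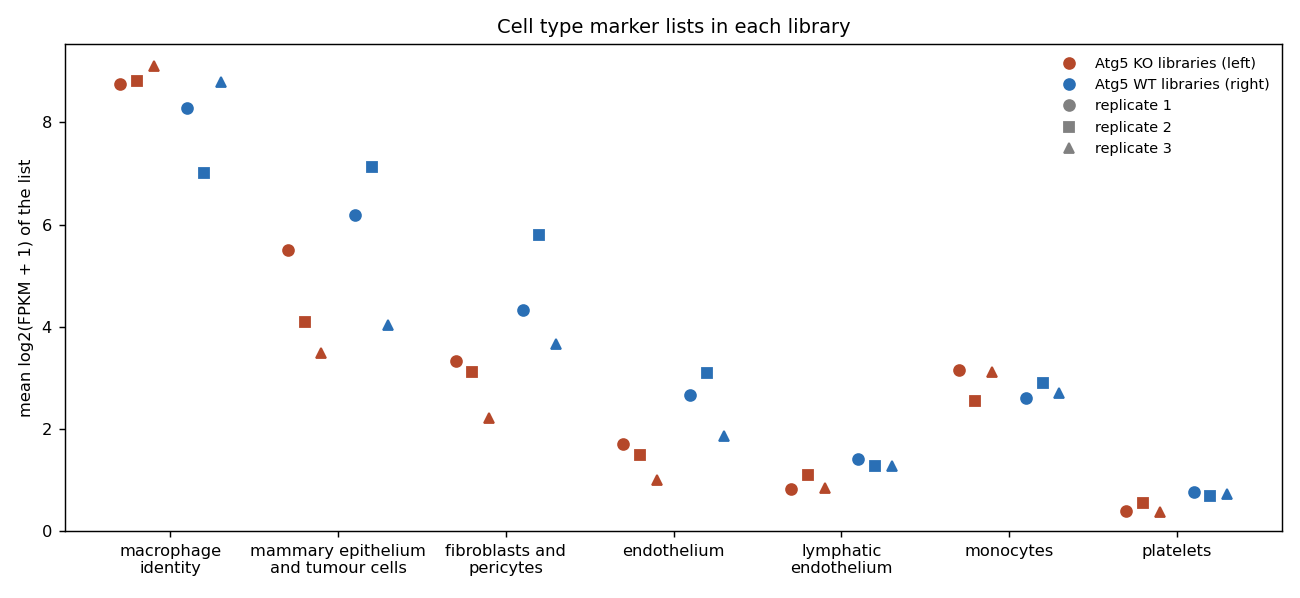
Mean log2(FPKM + 1) of 7 cell type marker lists (vertical axis) in the Atg5 KO (red, left) and Atg5 WT (blue, right) libraries, with a symbol per replicate. The macrophage score is lowest and the tumour-cell score highest in Atg5 WT replicate 2, and the lymphatic endothelium and platelet lists stay below 1.5 in every library.

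The 10 genes were next set against the macrophage score. With the score subtracted from log2(FPKM + 1), 8 of the 10 genes had an SD below 0.15 over the 3 Atg5 WT libraries, the exceptions being Cd163 (0.21) and Igf1 (0.78). So did 13 of the 15 macrophage genes that make up the score, and the share of all genes was not computed. In Atg5 KO the SD was 0.0894 for Timd4 and 0.17 for Stab1. It ran from 0.25 (Siglec1) to 0.91 (Cd163) for the other 8 of the 10 genes, with Igf1 at 0.55. Vsig4, for example, stood at -5.09, -5.11 and -5.05 in Atg5 WT, so that its lower FPKM in Atg5 WT replicate 2 was matched by that of the macrophage genes. In Atg5 KO the same gene stood at -6.49, -5.29 and -6.18, an SD of 0.62, against 0.0299 in Atg5 WT. That Atg5 WT SD was the smallest of the 10 genes and rests on 222, 75 and 333 reads. Counting error was not computed on this scale, so nothing is read from how close these Atg5 WT values are.

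On this scale Cd163, Lyve1, F13a1 and Vsig4 were lower in every Atg5 KO library than in any Atg5 WT library. Cd163 stood at -4.30, -2.76 and -4.36 in Atg5 KO, against -2.62, -2.24 and -2.59 in Atg5 WT, a difference of -1.32. The differences were -0.90 for Vsig4, -0.82 for Lyve1 and -0.74 for F13a1. The libraries of 21.6% of all genes were lower without overlap on this scale, where the median difference of all genes tested was -0.95. Beside the 15 macrophage genes of the score, whose own differences ran from -0.30 for Cd68 to 0.27 for Aif1, 6 of the 10 lay below that range, namely these 4 with Igf1 at -1.06 and Folr2 at -0.31. Igf1 and Folr2 overlapped between the groups. The score is the mean of these 15 genes, so their range lies around 0 by construction, and the share of all genes below it was not computed. Of the 6, only Cd163 and Igf1 lay below the median of all genes tested, and nothing is read from the count.

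Cd5l was the one gene of the 10 above the range of the macrophage genes. It stood at -3.65, -5.05 and -3.64 in Atg5 KO, against -5.44, -5.39 and -5.57 in Atg5 WT, a difference of 1.35, and the SD of its Atg5 WT values was 0.0918. Timd4 kept its non-overlap by a small margin, at -4.37, -4.28 and -4.46 in Atg5 KO, against -4.54, -4.67 and -4.53 in Atg5 WT, a difference of 0.21. Stab1 and Siglec1 differed by -0.05 and 0.10 and overlapped. The libraries of 0.276% of all genes were higher in Atg5 KO without overlap on this scale, and as the 10 genes were chosen from this contrast nothing is read from the comparison with that share.

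**Figure D3:**
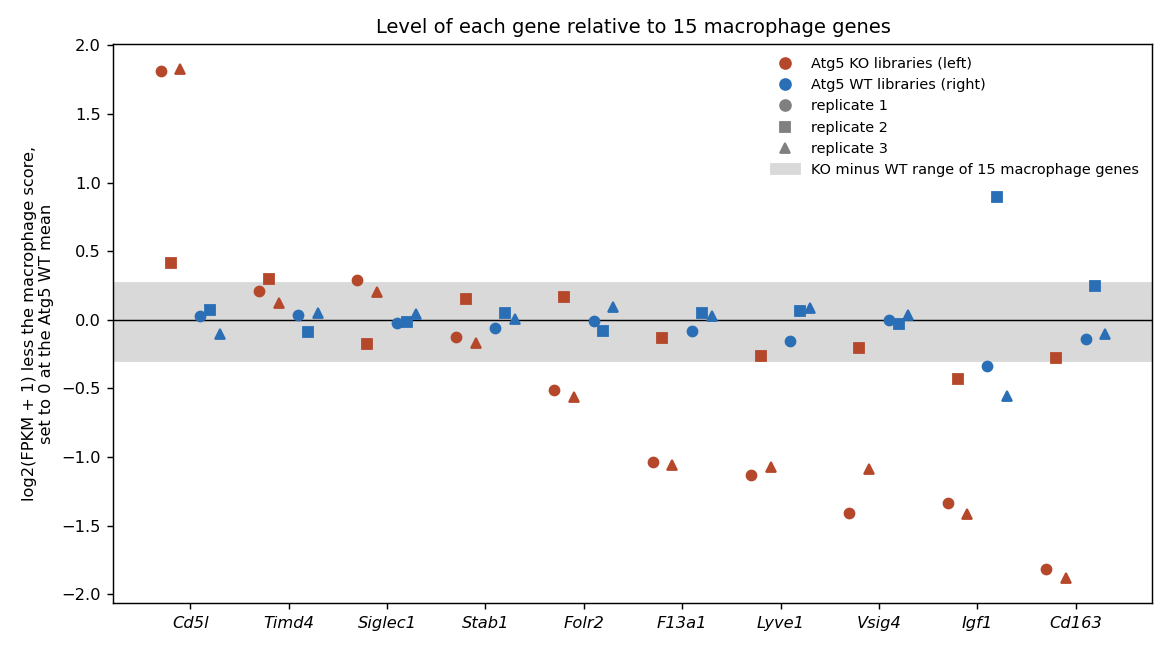
Level of each gene as log2(FPKM + 1) less the macrophage score, set to 0 at the mean of the Atg5 WT libraries (vertical axis), for Atg5 KO (red, left) and Atg5 WT (blue, right) libraries with a symbol per replicate; the grey band is the range of the Atg5 KO minus Atg5 WT differences of the 15 macrophage genes, -0.30 to 0.27. For Cd5l (above 0) and for F13a1, Lyve1, Vsig4 and Cd163 (below 0), Atg5 KO replicates 1 and 3 lie far from 0 and Atg5 KO replicate 2 lies nearer to the Atg5 WT libraries.

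Ratios between the genes, taken within a library, set Cd5l and Cd163 apart. The ratio of Cd5l to Cd163 in FPKM was 1.59, 0.192 and 1.67 in Atg5 KO, against 0.125, 0.0784 and 0.115 in Atg5 WT, so that Atg5 KO replicates 1 and 3 had more Cd5l than Cd163 per unit length and the other 4 libraries had less. The ratio of Timd4 to Cd163 was 0.951, 0.339 and 0.932 in Atg5 KO, against 0.250, 0.154 and 0.250 in Atg5 WT. By contrast the ratio of Lyve1 to F13a1 stayed between 0.234 and 0.268 in all 6 libraries, a highest value 1.14 times the lowest. These ratios were chosen after the values had been seen.

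Across libraries some of the genes followed one another closely. Lyve1, F13a1 and Vsig4 put the 6 libraries in one and the same order, Atg5 WT replicate 3 highest and Atg5 WT replicate 2 lowest, and Pearson's r of log2(FPKM + 1) between them was 0.99 for Lyve1 and F13a1 and 0.98 for Lyve1 and Vsig4. Timd4 and Stab1 had an r of 0.99, which was 0.94 without Atg5 WT replicate 2. Cd163 was most like Igf1 among the 10, at an r of 0.91. Cd5l was most like Siglec1, at 0.90, and least like Igf1 and Cd163, at -0.48 and -0.32. Of the 45 pairs, 12 had an r over 0.9 and 3 an r below 0, and without Atg5 WT replicate 2 these counts were 11 and 16. These r values describe 6 libraries, and values of 1 library share its depth and its level of macrophage RNA. Against the macrophage score, r was 0.99 for Timd4, 0.99 for Stab1, 0.98 for Siglec1, 0.91 for Folr2 and 0.84 for Cd5l. It was 0.73 for F13a1, 0.70 for Lyve1, 0.64 for Vsig4, 0.24 for Cd163 and -0.0014 for Igf1. These values rest largely on Atg5 WT replicates 1 and 2, the libraries farthest from the median of the score. Without them r was 0.78 for Timd4, 0.72 for Siglec1, 0.59 for Stab1 and 0.55 for Cd5l, and it lay between -0.31 (Cd163) and -0.02 (Vsig4) for the other 6 genes.

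**Figure D4:**
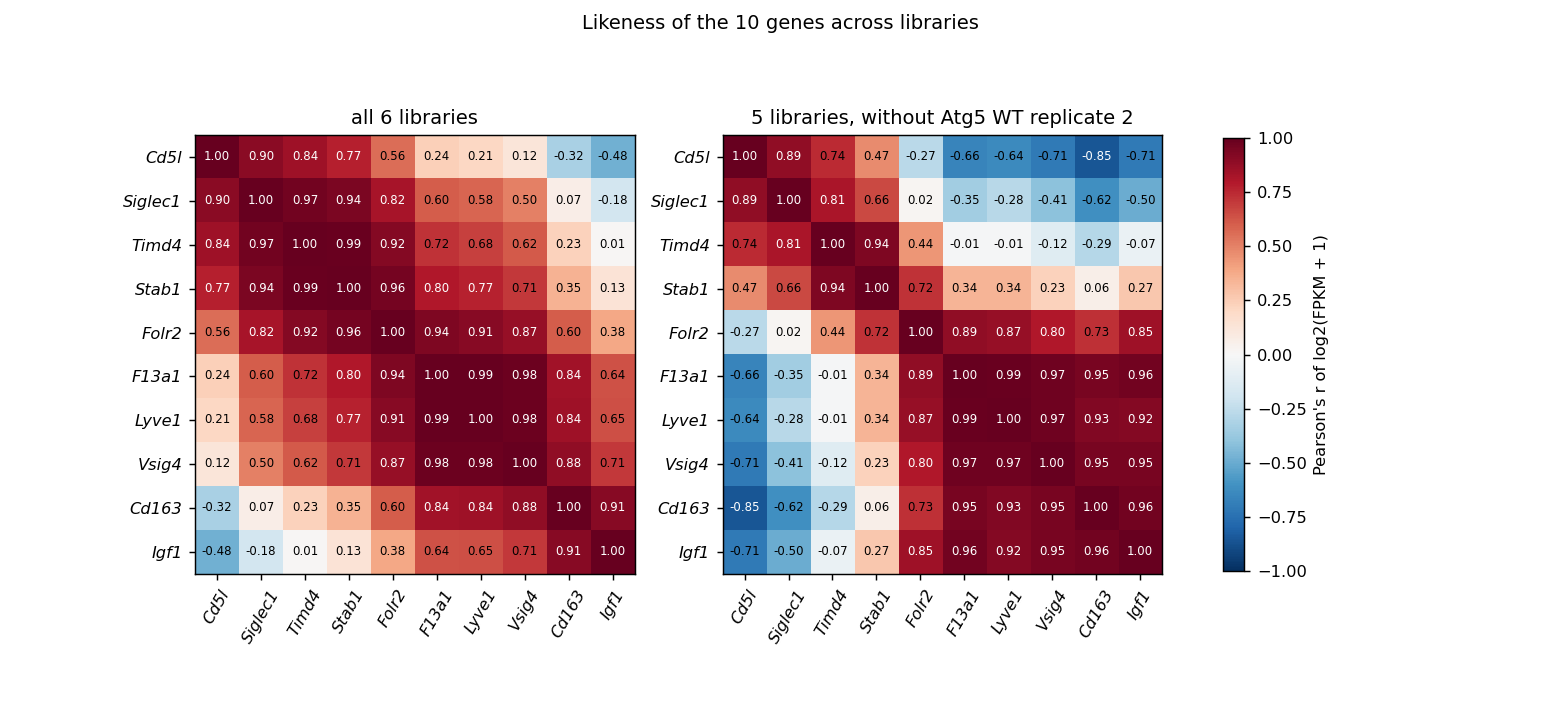
Pearson's r of log2(FPKM + 1) for each pair of the 10 genes (rows and columns, colour from -1 to 1), over all 6 libraries (left) and over 5 libraries without Atg5 WT replicate 2 (right). F13a1, Lyve1, Vsig4, Cd163 and Igf1 form a block of high values, which Igf1 joins more closely without that library, while Cd5l against Cd163 goes to -0.85. Over all 6 libraries Folr2 is high with F13a1 (0.94) and Lyve1 (0.91) of this block, and also with Stab1 (0.96) and Timd4 (0.92) outside it.

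How far the differences depended on single libraries and on the macrophage score varied with the gene. Over 17 alternative fits the difference of Cd5l stayed positive, between 1.35 and 2.71, and that of Cd163 stayed negative, between -1.32 and -0.13. Timd4 and Siglec1 stayed positive, down to 0.15 and 0.07 with the macrophage score as a covariate, where Stab1 was at 0.00 and negative (-0.0049). Lyve1, F13a1 and Folr2 were -0.78, -0.69 and -0.35 with that covariate, -0.63, -0.52 and -0.11 when the covariate was the tumour-cell score, and -0.45, -0.37 and 0.00 (-0.0005) without Atg5 WT replicate 2. Without that library Cd5l was at 1.73 and Igf1 at -0.27. Without Atg5 KO replicate 2, Lyve1 and F13a1 were at -0.21 and -0.15. Vsig4 was positive under median-ratio scaling (0.03) and quantile normalization (0.13) and without Atg5 KO replicate 1 (0.28), Atg5 WT replicate 1 (0.08) or Atg5 WT replicate 3 (0.36), and Igf1 was at 0.00 (0.0037) without Atg5 KO replicate 1. None of the 10 genes was called in any of these fits, and the smallest adjusted p was 0.129 (limma-trend, Cd5l without Atg5 WT replicate 3).

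**Figure D5:**
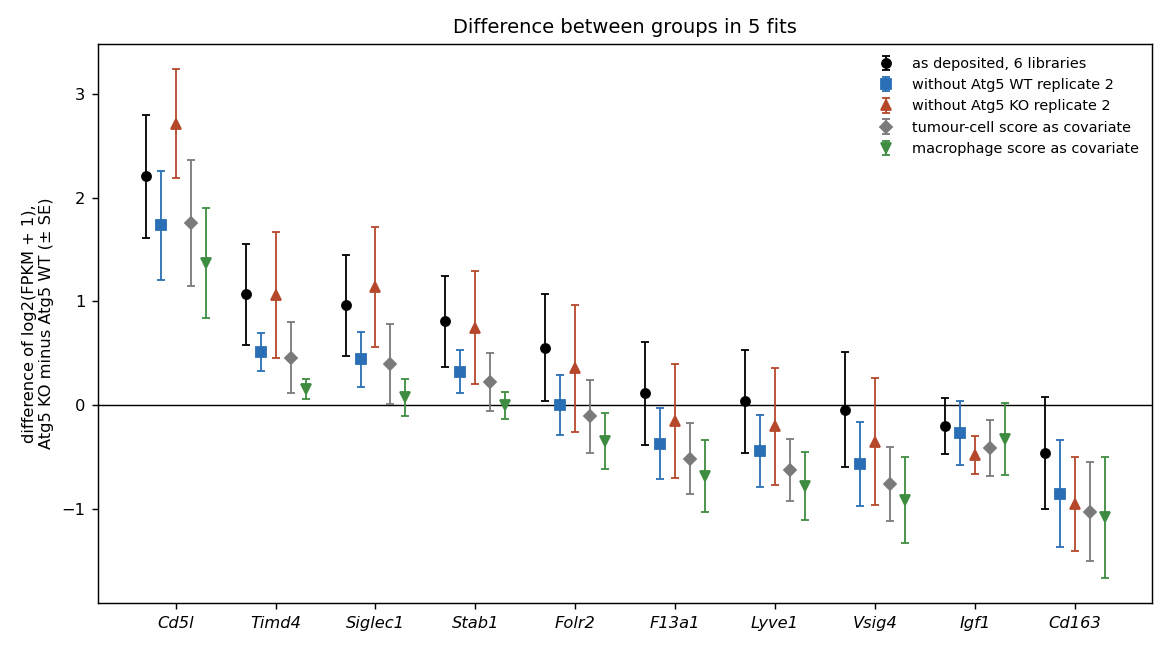
Difference of log2(FPKM + 1), Atg5 KO minus Atg5 WT, for the 10 genes (vertical axis, bars ± SE) in the fit to all 6 libraries, in fits without Atg5 WT replicate 2 or Atg5 KO replicate 2, and in fits with either score (tumour-cell, macrophage) as a covariate. Cd5l lies above 0 and Cd163 below 0 in all 5 fits, and Lyve1, F13a1 and Folr2 are above 0 in the fit to all libraries and below 0 with either covariate.

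Related genes were taken from 12 lists set by function, which held 138 genes, of which 115 passed the filter and 0 were called by limma-trend or limma-voom, where 0.00811% of all genes were by each tool. At an unadjusted p under 0.05 limma-trend counted 17 and limma-voom 16 of the 115, against 10.01% and 9.51% of all genes. Other resident-type macrophage genes came out mixed, 14 of 23 with a higher and 9 with a lower mean (median 0.18, against -0.09 for all genes), and without Atg5 WT replicate 2 the split was 11 to 12 (median -0.18, against -0.02). For 6 of the 23 the Atg5 KO libraries lay above all Atg5 WT libraries, as for 9.20% of all genes, among them Marco, a scavenger receptor with an SRCR domain, at 15.4, 10.8 and 20.8 FPKM in Atg5 KO, against 4.22, 0.484 and 7.11 FPKM in Atg5 WT, and Clec10a, a galactose-type lectin, at 144, 149 and 192 FPKM in Atg5 KO, against 73.1, 44.6 and 111 FPKM in Atg5 WT. The lectin gene Cd209f instead had 39.5, 139 and 56.5 FPKM in Atg5 KO, against 105, 40.2 and 157 FPKM in Atg5 WT, and Pf4, a chemokine gene of platelets and perivascular macrophages, had 86.6, 193 and 118 FPKM in Atg5 KO, against 195, 67.1 and 299 FPKM in Atg5 WT. These last genes were high in Atg5 KO replicate 2 and low in Atg5 KO replicates 1 and 3, the order seen for Cd163. Clec4f, a Kupffer cell marker, was at 0 in the Atg5 WT libraries and at 0.0203 FPKM or less in the Atg5 KO libraries.

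Transcription factors of resident macrophages had a median difference of 0.36, with 7 of 10 higher in the mean (8 of 10 under quantile normalization), and a median of 0.155 without Atg5 WT replicate 2. Id1, a target of BMP signals, was the gene of smallest p and had the opposite direction, at 8.18, 5.78 and 6.11 FPKM in Atg5 KO, against 15.1, 22.8 and 7.95 FPKM in Atg5 WT (log2 difference -0.98, SE 0.37, limma-trend adjusted p = 0.492), with overlap. Maf, which encodes a factor that binds the core marked in the Cd5l promoter, had 35.0, 34.0 and 44.3 FPKM in Atg5 KO, against 23.2, 12.8 and 33.0 FPKM in Atg5 WT, without overlap (log2 difference 0.77, SE 0.34, limma-trend adjusted p = 0.492). Nr1h3, the liver X receptor alpha, of which Cd5l is a known target in mouse macrophages, had 11.2, 10.8 and 13.6 FPKM in Atg5 KO, against 8.98, 4.33 and 12.5 FPKM in Atg5 WT and overlapped. Spic, a factor of red pulp macrophages, was low throughout, at 1.980, 2.085 and 1.601 FPKM in Atg5 KO and 2.50, 0.769 and 3.47 FPKM in Atg5 WT. The partners of CD5L split 4 higher to 4 lower in the mean (median -0.0025; 5 to 3 without Atg5 WT replicate 2). The receptor gene Cd36 had 49.2, 50.3 and 63.5 FPKM in Atg5 KO, against 38.1, 22.8 and 48.6 FPKM in Atg5 WT, and Ighm, the heavy chain of the IgM to which CD5L binds in plasma, 86.2, 86.7 and 109 FPKM in Atg5 KO, against 53.4, 25.2 and 75.6 FPKM in Atg5 WT. Jchain, the joining chain of the same IgM, had the opposite direction, at 2.95, 0.346 and 0.216 FPKM in Atg5 KO, against 15.4, 0.930 and 23.7 FPKM in Atg5 WT (log2 difference -2.31, SE 1.05), with overlap. Fasn, the fatty acid synthase that CD5L binds in fat cells, had a lower mean in Atg5 KO (log2 difference -0.87, SE 0.49) and overlapped.

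Of the IGF pathway list, 15 of 15 tested genes had a lower mean in Atg5 KO (14 of 15 under quantile normalization), with a median difference of -0.94, and of -0.44 without Atg5 WT replicate 2. Igfbp3, a carrier protein of IGF1, had 3.999, 3.21 and 1.47 FPKM in Atg5 KO, against 13.6, 29.1 and 10.2 FPKM in Atg5 WT (log2 difference -2.19, SE 0.44, limma-trend adjusted p = 0.492). Igfbp7 had 30.6, 23.7 and 9.36 FPKM in Atg5 KO, against 84.2, 159 and 36.1 FPKM in Atg5 WT. The fibroblast and endothelial markers given above had lower means in Atg5 KO as well, and the part of those cells in the IGF list was not tested. The receptor gene Igf1r overlapped, at 2.83, 4.13 and 2.33 FPKM in Atg5 KO and 3.35, 3.89 and 3.77 FPKM in Atg5 WT.

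Haemoglobin clearance genes, set beside Cd163, were higher in the mean for 11 of 12 (median 0.39; 10 of 12 under quantile normalization, and 10 of 12 with a median of 0.083 without Atg5 WT replicate 2). Blvrb, a biliverdin reductase, had 112, 120.2 and 144 FPKM in Atg5 KO, against 65.9, 39.2 and 90.0 FPKM in Atg5 WT, and the iron exporter Slc40a1 had 12.9, 16.1 and 14.98 FPKM in Atg5 KO, against 9.01, 6.49 and 11.6 FPKM in Atg5 WT. Hmox1, the haem oxygenase that is coupled to CD163 uptake, overlapped, at 269, 366 and 321 FPKM in Atg5 KO and 364, 147 and 510.0 FPKM in Atg5 WT. Among relatives of Siglec1, 5 of 7 were higher in the mean (median 0.56; 0.12 without Atg5 WT replicate 2), with Siglece and Cd22 free of overlap. Complement receptors and regulators, set beside Vsig4, were higher in the mean for 8 of 8 (median 0.60), and for 7 of 8 without Atg5 WT replicate 2 (median 0.145). All 15 macrophage genes had higher means as well (median 0.87; 0.34 without that library), Itgam stands in both lists, and the part of the macrophage level in the haemoglobin, Siglec and complement lists was not tested. Itgb2, the integrin chain shared by complement receptors, had the smallest p and overlapped. SRCR relatives of Cd5l and Cd163 split 4 to 3 (median 0.19; 3 to 4 with a median of -0.13 without Atg5 WT replicate 2). Hyaluronan and stabilin relatives were lower in the mean for 6 of 6 (median -0.47), folate genes for 8 of 10 (median -0.18; 5 of 10 under quantile normalization) and transglutaminase and fibrin genes for 8 of 9 (median -0.45). In the TIM family, Havcr2 was higher and Timd2 lower in the mean, and both overlapped. Stab2, the close relative of Stab1 in sinusoidal endothelium, stayed below 0.1 FPKM.

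The genes whose levels were most like those of the members over the 6 libraries differed from member to member. For Cd5l they were Fam26f, Tlr12 and Psmb8, at an r of 0.999, 0.998 and 0.998 among 11460 genes, and each put the libraries in the order of Cd5l. Psmb8, a subunit of the immunoproteasome, had 58.8, 38.8 and 70.7 FPKM in Atg5 KO, against 29.6, 20.8 and 33.7 FPKM in Atg5 WT. Fam26f had 24.1, 9.56 and 30.2 FPKM in Atg5 KO, against 4.95, 2.11 and 6.61 FPKM in Atg5 WT. As Fam26f, Tlr12 and Psmb8 share the library order of Cd5l, none of them could overlap between the groups. For Timd4 the most alike gene was Gmfg, for Stab1 the integrin chain Itgb2, for Siglec1 the receptor Cd72, for Folr2 the plexin Plxnc1, for Lyve1 the carbonyl reductase Cbr2 and for F13a1 the pyrin gene Mefv, with Cbr2 close behind. Cbr2 had 142, 252 and 179 FPKM in Atg5 KO, against 193, 99.4 and 283 FPKM in Atg5 WT. For Cd163 it was Nfkbiz, for Vsig4 Hccs and for Igf1 Chsy1, at an r of 0.997, 0.996 and 0.993. Between 24 genes (Igf1) and 861 genes (Stab1) passed an r of 0.95, so a high likeness over 6 libraries is common.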

How the data were processed

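The 10 genes, the lists and the tests were chosen with earlier results of these data known. Groups and replicate numbers came from the labels. The deposited table gives FPKM per gene and mouse, computed by the authors; the submitters' processing notes name STAR, CASAVA and mm10. The counting program, its strand setting and its annotation were not stated in the labels, notes or headers. Multiplying FPKM by the listed gene length gave whole reads for 100.0% of values in every library, within 0.01 read. Values were analysed as log2(FPKM + 1) for the 12332 genes with a mean of at least 1 FPKM, with the group as the only term, in limma 3.58.1 under R 4.3.3 (limma-trend, two-sided, Benjamini-Hochberg adjustment over all genes, threshold 0.05). Differences run Atg5 KO minus Atg5 WT, and for low genes this scale makes them too small. limma-voom was run on the recovered reads. Scores are means of log2(FPKM + 1) over a marker list, compared by an exact permutation test over libraries. Of 226 list entries, 225 matched the table, 1 of them by identifier. The fits were tested on simulated counts, with a smaller spread between libraries than Cd5l had in either group. That test therefore does not measure power or error at the spread of these libraries.

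Genes were named by a rule: the 10 members, Atg5 and Lyz2, the 3 genes most like each member by Pearson's r, up to 4 genes of smallest p per related list with direct partners, and leading markers; Ly6c2, Plac8, Pdpn, Prox1, Reln, Mmrn1, Col1a1, Clec4f, Cd209f, Pf4, Igfbp7 and the other markers outside it were chosen after their values were seen. In GENCODE M21, exons of Folr2, Stab1 and F13a1 overlap an exon of a gene on the opposite strand, and reads of such pairs cannot be told apart where strand was not used.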

Additional observations from a re-analysis of the deposited data

How the results depend on the processing

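With all 6 libraries 0 genes were called higher and 1 lower in Atg5 KO. The 1 gene was Lyz2, in which Cre is placed in the Atg5 KO mice (limma-trend adjusted p = 0.0306). The 1 lower gene was lost (0 called) with no filter, with median-ratio scaling and with the replicate number as a block, and leaving out 1 library gave between 0 and 2 higher and between 0 and 14 lower genes, the most without Atg5 WT replicate 2. The median log2 difference of the 10 genes, 0.33, was -0.34 with the macrophage score as a covariate and -0.52 with that score subtracted, an alternative chosen after seeing the data; it was -0.27 when the tumour-cell score was the covariate, and leaving out 1 library gave between -0.13 (without Atg5 WT replicate 2) and 0.75 (without Atg5 WT replicate 3). Replicate numbers were not taken as pairs of mice in the main fit. Deviations of same-numbered libraries correlated at 0.21, -0.38 and 0.59 for numbers 1, 2 and 3. With 3 libraries per group these values cannot show whether mice were paired. The replicate block cannot move a difference of means in 3 balanced pairs. It changed only the errors (SE 0.12 for Cd5l, against 0.59 without it) and made no member called. The macrophage score difference stayed between 0.35 and 1.24 and the tumour-cell score difference between -2.29 and -0.74 in every alternative run. Quantile normalization put the median of all genes at 0.03, against -0.09 without it. The lowest read count of the 10 genes was 75, for Vsig4 in Atg5 WT replicate 2. Its counting error was not computed. It may exceed the spread of Vsig4 between the Atg5 WT mice once the macrophage score is subtracted (SD 0.0299). The causes of these changes were not tested.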

Other observations

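Lists of other immune cells were measured as well. Of the 4 B and plasma cell genes tested, 3 had a lower mean in Atg5 KO (median log2 difference -1.04), while of 5 T cell genes only Cd4 passed the filter (0.57, and -0.03 without Atg5 WT replicate 2) and the 3 dendritic cell genes tested were lower (median -0.47), and none was called. The B and plasma cell score was 2.03, 1.12 and 0.773 in Atg5 KO, against 2.39, 1.35 and 2.62 in Atg5 WT, so the groups overlapped. Cd3d, Cd3e and Cd3g, which define T cells, had lower means in Atg5 KO, at 1.27 FPKM or less in every library. The ratio of Stab1 to Cd163 in FPKM was 6.19, 2.50 and 6.24 in Atg5 KO, against 1.97, 1.64 and 2.01 in Atg5 WT, a pair chosen after the values had been seen.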
